A study of Mus musculus with 12 samples.

Results

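The genes described here are 10 that encode laminin chains and their basement membrane partners: the alpha chains Lama1, Lama2, Lama4 and Lama5, the beta chains Lamb1 and Lamb2, the gamma chain Lamc1, the nidogens Nid1 and Nid2, and Hspg2, which encodes perlecan. They were chosen by name and found by mapping the gene identifiers of the deposited count tables to symbols. All 10 were present among the 52636 genes of the tables. The libraries came from E14, a line of embryonic stem cells (ESCs) derived from mouse blastocysts. The 4 groups, of 3 libraries each, were day 6 embryoid bodies (EBs) of cells with a knockdown (KD) of the circular RNA circKat6b-e2, day 6 EBs of wild-type (WT) cells, undifferentiated KD ESCs and undifferentiated WT ESCs. EBs are aggregates in which stem cells differentiate into several lineages. The titles mark the KD as made with a short hairpin RNA. The labels do not say whether WT cells carried a control hairpin, or whether the KD line was clonal. A difference between KD and WT therefore includes whatever else sets these cultures apart. ESCs of both kinds were grown on gelatin with LIF, the MEK inhibitor PD0325901 and the GSK3 inhibitor CHIR99021, per the labels' protocols.

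Laminins are secreted heterotrimers of an alpha, a beta and a gamma chain that polymerise into the sheet on which a basement membrane is built. Nidogens bind the laminin gamma chain encoded by Lamc1 and link the laminin sheet to the collagen IV network, and perlecan adds a heparan sulfate proteoglycan that binds both. In EBs an outer endoderm layer is known to lay down a basement membrane, and inner cells that contact it polarise into an epithelium. Mouse embryos that lack Lamc1 form no basement membrane and die around implantation.

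Read counts per gene were used. The libraries held between 25.4 and 37.8 M counts each. Levels are given as CPM, counts scaled by library size and by the TMM factors of the stage, with the tables of ESCs and EBs scaled separately, unless RPKM (the same per kilobase of exon) are named. RPKM used the factors of all 12 libraries and serve for comparisons between genes or between stages. One library, ESC WT replicate 2, stood apart: the chi-square per gene was 55.4 and 56.0 for its pairs with the other WT ESC libraries, against 4.78 to 9.11 for the other replicate pairs. The summed level of 12 naive pluripotency genes was taken in CPM with the factors of all 12 libraries. It was 474 to 483 CPM in KD EBs and 289 to 291 CPM in WT EBs. In ESCs it was 3479 to 3563 CPM (KD) and 2903 to 3252 CPM (WT). The labelled stage thus matched the markers in every library.

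On GRCm38, the build of the deposited annotation, the alpha chain genes were Lama1 on chromosome 17 (67697265 to 67822645, plus strand), Lama2 on chromosome 10 (26980036 to 27619758, minus strand), Lama4 on chromosome 10 (38965515 to 39110188, plus strand) and Lama5 on chromosome 2 (180176373 to 180225859, minus strand). Lamb1 was on chromosome 12 (31265234 to 31329644, plus strand), Lamb2 on chromosome 9 (108479736 to 108490530, plus strand) and Lamc1 on chromosome 1 (153218922 to 153332786, minus strand). Nid1 was on chromosome 13 (13437551 to 13512269, plus strand), Nid2 on chromosome 14 (19751265 to 19811787, plus strand) and Hspg2 on chromosome 4 (137468769 to 137570630, plus strand). The members therefore lie apart from one another in the genome, and Lama2 and Lama4 share a chromosome. Counting took all exons of a gene together. Exons of Nid2 overlap those of the antisense gene Rtraf over 437 bases, 8.45% of the Nid2 exon length. Without strand information reads in that stretch cannot be told apart. The count of Rtraf reached 10612 in a library, against at most 10112 for Nid2, and its part in the Nid2 values was not tested. Nid1 overlaps an antisense gene over 143 bases (2.06% of its exon length) whose count never exceeded 8.

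Promoters are shown for 4 members with different behaviour in the comparisons that follow: Nid1, which was higher in KD EBs, Lama5 and Hspg2, which were lower in KD EBs, and Lamb1, which was far higher in EBs than in ESCs and was not called between KD and WT. RefSeq (GRCm38.p6) held a promoter for 6 of the 10 members, and for these 4 its start lay within 60 bases of the gene start in the count tables. The window runs from 250 to 61 bases before the RefSeq start, 5′ to 3′ on the strand of the gene, and capitals mark each GATA (the core of the GATA factor motif, TATC on the other strand) and each CCGCCC (the core of the GC box, GGGCGG on the other strand). CACGTG, the E-box core, was also searched, on both strands, and the marked matches do not overlap one another.
Nid1 promoter (chr13:13437352-13437541, plus strand): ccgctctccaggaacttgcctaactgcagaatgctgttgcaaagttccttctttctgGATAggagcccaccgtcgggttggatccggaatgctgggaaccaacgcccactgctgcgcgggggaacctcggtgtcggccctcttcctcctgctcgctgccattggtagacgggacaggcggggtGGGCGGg
Lama5 promoter (chr2:180225920-180226109, minus strand): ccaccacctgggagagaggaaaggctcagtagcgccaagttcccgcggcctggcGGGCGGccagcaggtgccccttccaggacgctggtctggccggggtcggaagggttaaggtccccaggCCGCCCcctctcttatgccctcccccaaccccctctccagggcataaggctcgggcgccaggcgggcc
Hspg2 promoter (chr4:137468553-137468742, plus strand): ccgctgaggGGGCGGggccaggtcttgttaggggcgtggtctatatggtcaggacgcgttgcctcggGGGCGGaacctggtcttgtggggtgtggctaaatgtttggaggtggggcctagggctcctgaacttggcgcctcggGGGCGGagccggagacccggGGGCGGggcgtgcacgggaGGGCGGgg
Lamb1 promoter (chr12:31265043-31265232, plus strand): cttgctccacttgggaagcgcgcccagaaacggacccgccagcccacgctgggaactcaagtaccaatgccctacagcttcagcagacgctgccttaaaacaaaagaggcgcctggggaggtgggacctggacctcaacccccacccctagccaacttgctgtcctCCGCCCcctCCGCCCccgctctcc
The Nid1 window held 1 GATA and 1 CCGCCC, the Lama5 window 2 CCGCCC, the Hspg2 window 5 and the Lamb1 window 2, with no CACGTG in any of the 4. Of 32851 mouse promoter windows of the same 190 bases, 47% held GATA, 22.8% held CCGCCC and 4.03% held CACGTG, each on either strand. These matches describe the letters of the windows and were not related to the counts.

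In day 6 EBs the members moved in both directions with the KD. Lama1, Lama2, Lama4, Nid1 and Nid2 were higher in KD EBs, Lama5, Lamb2 and Hspg2 were lower, and Lamb1 and Lamc1 did not pass the threshold of an adjusted p under 0.05 (edgeR's quasi-likelihood test, Benjamini-Hochberg over all genes tested). The call rate over all genes was high: 55.7% of the 17355 genes tested were called, 28.0% higher and 27.7% lower, so 8 of 10 members called is to be read against that share. The median log2 fold change was 0.19 over the 10 members and 0.0024 over all genes tested. In 9 of the 10 members the KD and WT libraries did not overlap, against 61.2% of all genes tested.

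**Figure D1:**
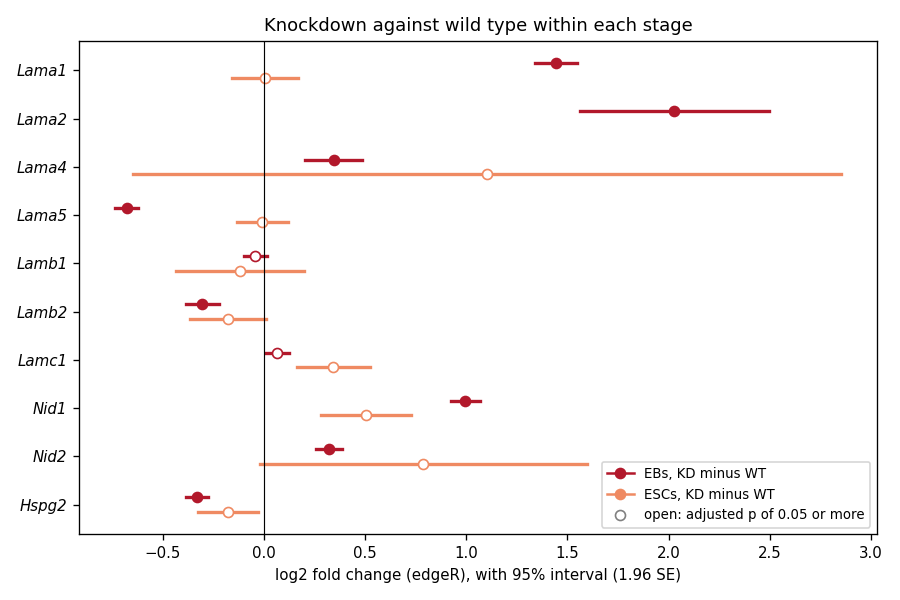
Log2 fold change of KD minus WT for the 10 genes in EBs and in ESCs, from edgeR fits of 6 libraries per stage. Bars are approximate 95% intervals (1.96 SE). Open symbols did not pass an adjusted p of 0.05: in EBs Lamb1 and Lamc1, and in ESCs all 9 genes tested, while Lama2 had too few counts to be tested in ESCs.

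Lama1 encodes the alpha chain of the laminin that prevails in the earliest embryonic basement membranes and in that of the parietal yolk sac. Its level was 105, 114 and 113 CPM in the KD EB libraries, against 42.0, 37.9 and 42.0 CPM in the WT EB libraries. Every KD library thus lay far above every WT library. The log2 fold change was 1.44 (SE 0.05, edgeR adjusted p = 1.59e-20), a 2.72-fold higher level in KD EBs.

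Lama5, the alpha chain found most widely in embryonic epithelia, showed the opposite direction. It stood at 482, 485 and 469.6 CPM in KD EBs and at 776, 756 and 766 CPM in WT EBs, with no overlap. KD EBs thus held 0.625 times the WT level (log2 fold change −0.68, SE 0.03, edgeR adjusted p = 5.88e-19).

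The remaining alpha chains were less abundant. Lama2, the chain of the laminin around adult muscle fibres and Schwann cells, had 7.60, 6.44 and 4.99 CPM in KD EBs, against 1.25, 2.13 and 1.29 CPM in WT EBs. Its lowest KD library still lay above its highest WT library, and the log2 fold change of 2.03 (SE 0.24, edgeR adjusted p = 1.29e-08) was the largest among the members. It rests on 164 to 245 counts per KD library and 40 to 66 per WT library. Lama4, a chain of vascular and mesenchymal basement membranes, had 46.1, 42.6 and 39.2 CPM in KD EBs and 33.7, 32.7 and 34.4 CPM in WT EBs. The groups did not overlap and the log2 fold change was 0.34 (SE 0.07, edgeR adjusted p = 1.38e-04), a call lost in the fit of all 12 libraries (adjusted p = 0.137).

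The beta and gamma chains differed less. Lamb1, the beta chain of most embryonic laminins, had 518, 519.7 and 509 CPM in KD EBs and 542, 531 and 519 CPM in WT EBs. These ranges overlapped, and the log2 fold change of −0.04 (95% interval −0.10 to 0.02, edgeR adjusted p = 0.237) missed the threshold. Lamc1, the gamma chain shared by most laminins, had 571, 548 and 558 CPM in KD EBs and 548, 529 and 523 CPM in WT EBs. Its log2 fold change of 0.07 (95% interval 0.0091 to 0.13, edgeR adjusted p = 0.0547) missed the threshold narrowly, and the call was made without EB WT replicate 1 (adjusted p = 0.0363). The lowest KD and the highest WT library of Lamc1 were nearly equal. For both genes the interval excludes a change of the size seen in Lama1. Lamb2, the beta chain known from the neuromuscular junction and the kidney glomerulus, was lower in KD EBs, at 129, 142 and 145 CPM, against 175, 165 and 175 CPM in WT EBs. Its groups did not overlap (log2 fold change −0.30, SE 0.04, edgeR adjusted p = 3.51e-07).

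Both nidogens were higher in KD EBs, by different amounts. Nid1 had 255, 254 and 259 CPM in KD EBs and 133, 129 and 123 CPM in WT EBs. The libraries of each group lay close together and the level in KD EBs was 1.99 times that in WT EBs (edgeR adjusted p = 2.30e-20, log2 fold change 1.00, SE 0.04). Nid2 had 313, 312 and 308 CPM in KD EBs and 247, 256 and 243 CPM in WT EBs. Its groups did not overlap either, with a smaller log2 fold change of 0.32 (SE 0.03, edgeR adjusted p = 8.54e-10) that lost its call in the fit of all 12 libraries (adjusted p = 0.380). Hspg2 went the other way, with 740.3, 748 and 715 CPM in KD EBs and 943, 903 and 921 CPM in WT EBs. All 3 KD libraries were below all 3 WT libraries (log2 fold change −0.33, SE 0.03, edgeR adjusted p = 1.84e-11).

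**Figure D2:**
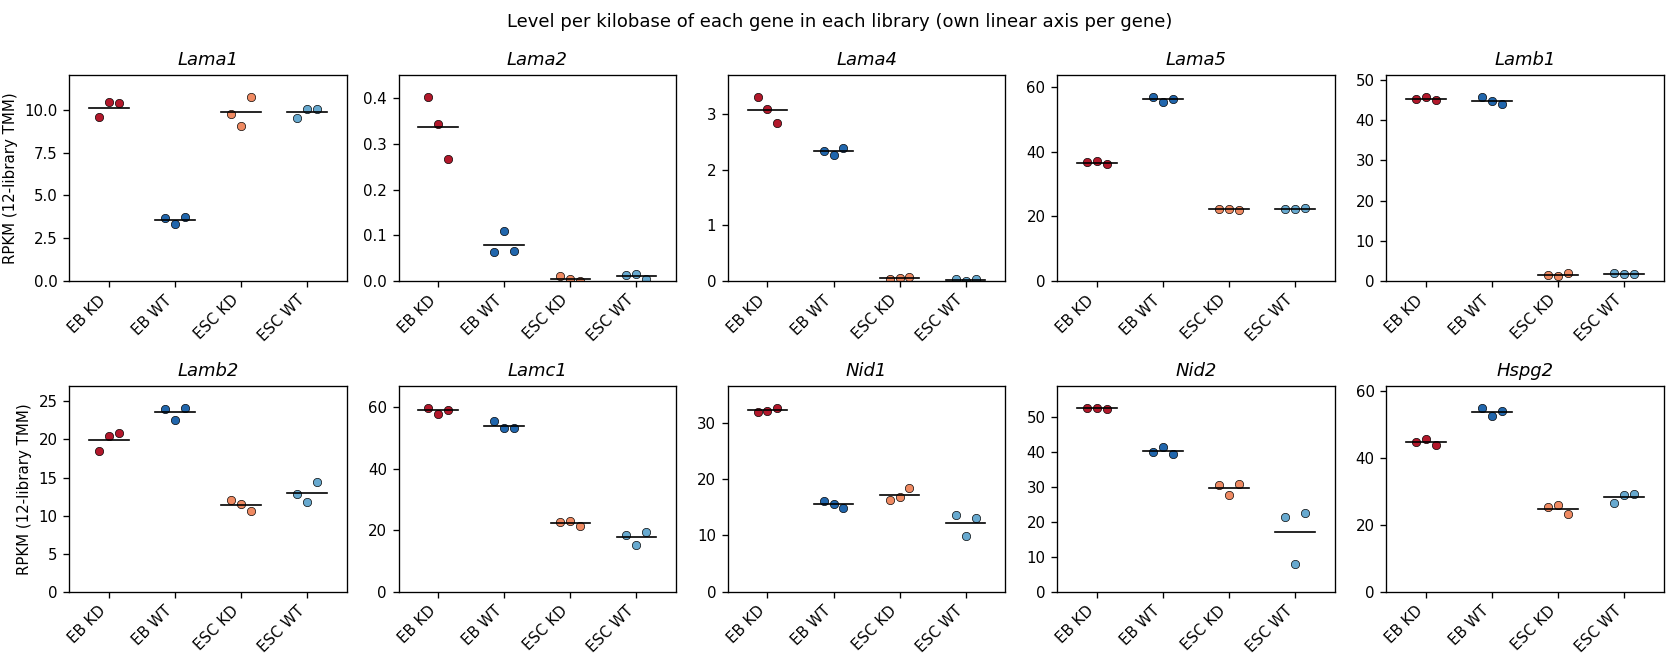
Level of each gene in every library, in RPKM (library-scaled counts per kilobase of exon), with a linear axis of its own for each gene and a bar at the mean of the 3 libraries of a group. Lama1 stands at a mean of 10.1 RPKM in KD EBs, against 3.57 in WT EBs, 9.86 in KD ESCs and 9.87 in WT ESCs, while Lamb1 is high in both kinds of EB and low in both kinds of ESC.

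The unequal changes altered the make-up of the alpha chain mRNA. Of the summed counts per kilobase of the 4 alpha chains, Lama1 made up 20.2% ± 0.92 in KD EBs and 5.74% ± 0.26 in WT EBs (SD, n = 3 each). Lama5 made up 73.0% ± 0.36 in KD EBs and 90.4% ± 0.27 in WT EBs, so it remained the main alpha chain in both. Lama4 made up 6.14% ± 0.45 and 3.74% ± 0.07 in KD and WT EBs, and Lama2 under 1% in each. The Lama1 difference was 14.4 percentage points, with every KD library above every WT library, and reached the smallest p that 3 against 3 libraries allow (two-sided exact permutation test, p = 0.1).

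Nid1 likewise made up a larger part of the nidogen mRNA in KD EBs, 38.0% ± 0.42, against 27.8% ± 0.75 in WT EBs, a difference of 10.2 percentage points (two-sided exact permutation test, p = 0.1, the smallest possible). Of the beta chain mRNA, Lamb2 made up 30.5% ± 1.43 in KD EBs and 34.5% ± 0.93 in WT EBs, a difference of −3.99 points (p = 0.1 in the same exact test). These shares refer to mRNA per exon length and say nothing of assembled protein.

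**Figure D3:**
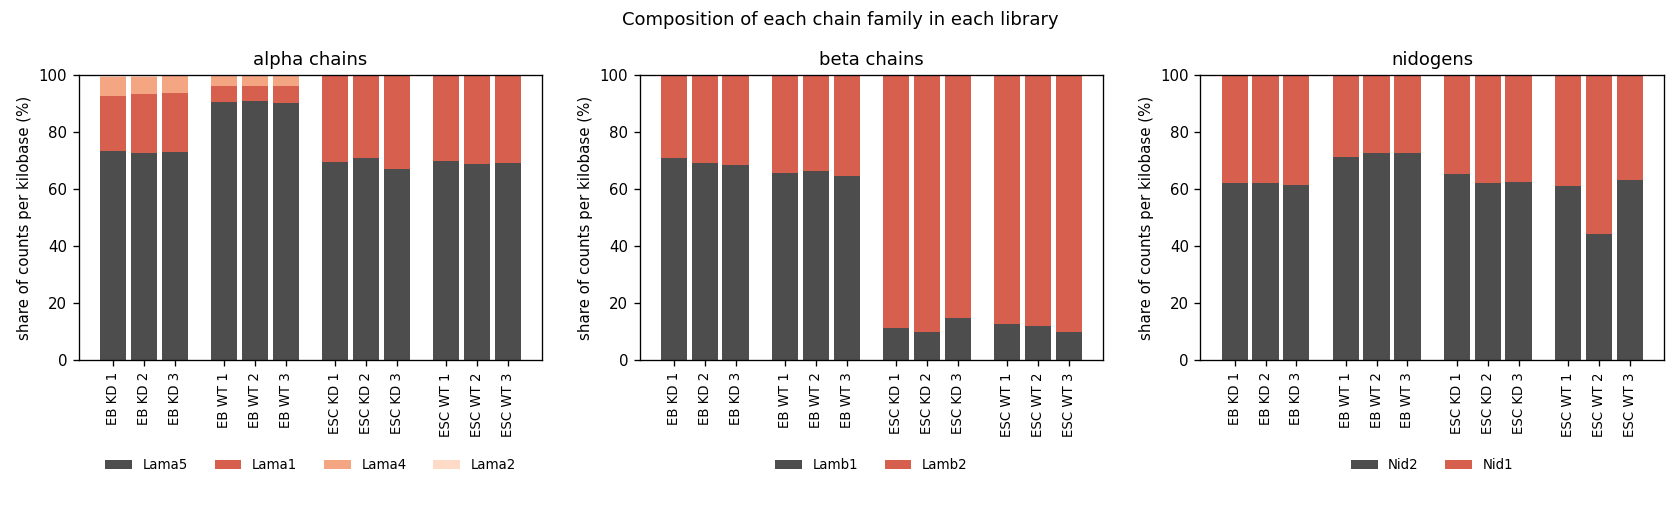
Share of each gene in the counts per kilobase of its family, in percent, stacked for each of the 12 libraries, for the alpha chains, the beta chains and the nidogens. Among alpha chains Lama1 holds 20.2% in KD EBs and 5.74% in WT EBs, against 30.7% in KD ESCs and 30.6% in WT ESCs.

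In undifferentiated ESCs none of the 9 members tested was called between KD and WT (edgeR), and 3 had an unadjusted p under 0.05. Over all 16081 genes tested, edgeR called 97, or 0.603%, with 0.168% higher and 0.435% lower. DESeq2 called 2 members, Nid1 and Lamc1, both higher in KD ESCs, among 909 genes that it called in all. The share of the genes tested with DESeq2 is not given, so these 2 calls are not read as a result about the members. The median log2 fold change was 0.0074 over the members and 0.01 over all genes. Lama1 had 79.7, 74.1 and 87.6 CPM in KD ESCs and 77.1, 81.4 and 81.8 CPM in WT ESCs, overlapping ranges with a log2 fold change of 0.0074 (95% interval −0.16 to 0.17). Lama5 had 217, 216 and 215 CPM in KD ESCs and 215, 215 and 222 CPM in WT ESCs, again overlapping, with a log2 fold change of −0.0073 (95% interval −0.13 to 0.12). Both intervals exclude the changes that these genes showed in EBs, 1.44 for Lama1 and −0.68 for Lama5.

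The nidogens and Lamc1 were the members with the clearest separation in ESCs. Nid1 had 96.9, 101 and 109 CPM in KD ESCs and 79.8, 58.5 and 77.6 CPM in WT ESCs. Nid2 had 135, 122 and 136 CPM in KD ESCs and 93.2, 34.8 and 99.3 CPM in WT ESCs. Lamc1 had 160.1, 162 and 152 CPM in KD ESCs and 129.7, 107 and 137 CPM in WT ESCs. In each of these genes every KD library lay above every WT library, and ESC WT replicate 2 gave the lowest value. The log2 fold changes were 0.51 for Nid1 (SE 0.11, edgeR adjusted p = 0.0701), 0.79 for Nid2 (SE 0.41, adjusted p = 0.340) and 0.34 for Lamc1 (SE 0.09, adjusted p = 0.0970).

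Without ESC WT replicate 2, a setting chosen with the data in view for the lists and planned for the members, these 3 genes were called higher: Nid1 by 0.38 (edgeR adjusted p = 4.34e-05), Nid2 by 0.44 (adjusted p = 6.59e-07) and Lamc1 by 0.24 (adjusted p = 0.00105) on the log2 scale. Lamb2 (−0.25, adjusted p = 0.0243) and Hspg2 (−0.16, adjusted p = 0.0281) were then called lower. In that fit 1557 of 16648 genes were called, or 9.35%. With that library kept, the calls turned on the fit: Nid1 was also called with DESeq2 (adjusted p = 0.00640), with no filter on low counts (edgeR adjusted p = 6.52e-06), with the replicate number as a block (adjusted p = 0.0416) and in the fit of 12 libraries (adjusted p = 0.00659). Lamc1 was called with DESeq2 (adjusted p = 0.0416), with no filter (edgeR adjusted p = 0.00248) and in the fit of 12 libraries (adjusted p = 0.0135), and Hspg2 in the fit of 12 libraries alone (adjusted p = 0.0465). Nid2 and Lamb2 were called only without ESC WT replicate 2 among the alternatives run.

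Hspg2, the fourth member whose groups did not overlap in ESCs, had 310.5, 320.1 and 285 CPM in KD ESCs and 324, 353 and 358 CPM in WT ESCs (log2 fold change −0.18, SE 0.08, edgeR adjusted p = 0.215). Non-overlap was met by 30.8% of all genes tested in ESCs, against these 4 of 9 members. Lamb2 had 62.7, 60.3 and 55.6 CPM in KD ESCs and 66.3, 60.9 and 74.8 CPM in WT ESCs, and Lamb1 13.2, 10.8 and 15.8 CPM and 15.8, 13.7 and 13.7 CPM in KD and WT ESCs, both with overlapping groups. Lama4 and Lama2 had few counts in ESCs. Lama4 had 10, 16 and 24 counts in KD ESCs and 16, 0 and 10 in WT ESCs, and Lama2 had 4, 2 and 0 counts in KD ESCs and 7, 6 and 2 in WT ESCs. Lama4 was tested, and its log2 fold change of 1.10 had a wide 95% interval, −0.65 to 2.85 (edgeR adjusted p = 0.501). Lama2 did not pass the filter on low counts, and a difference in it was not detectable at this depth. For the libraries at 0, a count of 0 allows up to 3 counts if counts are independent. Scaled by library totals without TMM factors, this is 0.0996 CPM of Lama2 in ESC KD replicate 3. For Lama4 in ESC WT replicate 2 it is 0.0954 CPM. These limits cover counting error only and are too low where both mates of a pair were counted.

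The difference between the KD effect in EBs and that in ESCs was tested as an interaction over the 12 libraries together. This test called 4 members, 3 higher and 1 lower in EBs, against 23.0% of all 18975 genes tested (12.8% higher, 10.2% lower). For Lama1 the KD effect was larger in EBs by 1.50 on the log2 scale (SE 0.10, edgeR adjusted p = 1.38e-07). For Lama5 it was lower in EBs, by −0.60 (SE 0.06, adjusted p = 6.40e-06). Nid1 showed a larger effect in EBs by 0.56 (SE 0.13, adjusted p = 0.00514), a call lost when libraries were scaled by their totals alone (0.40, adjusted p = 0.116). Lama2 showed a difference of 3.24 (SE 0.88, adjusted p = 0.0148), which rests on 7 or fewer counts per ESC library. Among the other members Lamc1 had −0.21 (adjusted p = 0.155), a value called at −0.31 without ESC WT replicate 3 (adjusted p = 0.0380), and Lama4, Lamb1, Lamb2, Nid2 and Hspg2 had adjusted p from 0.419 to 0.761.

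Between EBs and ESCs nearly all members were higher in EBs, in KD cells as in WT cells. In KD cells 9 of 10 were called higher and Lama1 was not called. In WT cells 9 were called higher and Lama1 was called lower. These comparisons had 79.8% of all genes called in KD cells and 79.8% in WT cells, with 42.5% higher and 37.3% lower in each. The median log2 fold change of EB minus ESC was 0.88 over the members in KD cells, against 0.15 over all genes, and 1.28 over the members in WT cells, against 0.17 over all genes. EB and ESC libraries did not overlap in 9 of the 10 members in KD cells, against 83.6% of all genes, and in all 10 members in WT cells, against 81.7% of all genes. Each of these comparisons uses EB libraries that also enter the comparison of KD and WT EBs, so the values are given side by side.

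Lamb1, with 314 or more counts in every ESC library, differed strongly between stages. Its mean level was 45.3 RPKM in KD EBs, against 1.56 RPKM in KD ESCs, 29.0-fold higher (log2 fold change 4.86, SE 0.11, edgeR adjusted p = 4.88e-15). In WT cells it was 44.8 RPKM in EBs, against 1.70 RPKM in ESCs, 26.2-fold higher (4.71, SE 0.11, adjusted p = 5.39e-15). Lamb1 was thus low in ESCs and abundant in EBs whether or not cells carried the KD. Lama4 differed more on the log2 scale, from at most 24 counts per ESC library, and stood at 3.08 RPKM in KD EBs, against 0.0543 RPKM in KD ESCs (5.79, SE 0.29), and 2.33 RPKM in WT EBs, against 0.0248 RPKM in WT ESCs (6.44, SE 0.32).

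Lamc1 was higher by 1.40 (SE 0.07) in KD cells and by 1.61 (SE 0.07) in WT cells on the log2 scale. Lama5 was higher by 0.73 (SE 0.04) in KD cells and by 1.33 (SE 0.04) in WT cells. Lamb2 was higher by 0.80 (SE 0.08) and 0.86 (SE 0.08), and Hspg2 by 0.85 (SE 0.06) and 0.93 (SE 0.06), in KD and WT cells. These 4 genes were called in both kinds of cells with edgeR adjusted p of 8.52e-08 or less. Nid1 was higher in EBs by 0.91 (SE 0.09, edgeR adjusted p = 1.37e-07) in KD cells and by 0.35 (SE 0.09, adjusted p = 0.00240) in WT cells, where it came to 0.19 without ESC WT replicate 2 (adjusted p = 0.00338). Nid2 was higher by 0.83 (SE 0.30, edgeR adjusted p = 0.0307) in KD cells and by 1.22 (SE 0.31, adjusted p = 0.00479) in WT cells. The call in KD cells was lost when any 1 KD library was left out (adjusted p 0.0581 to 0.103). Without ESC WT replicate 2, which enters the shared fit, Nid2 was higher by 0.77 in KD cells (SE 0.04, edgeR adjusted p = 5.27e-14). In WT cells it was then higher by 0.85 (SE 0.05, adjusted p = 1.17e-13).

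Lama1 was the exception. In WT cells it was lower in EBs than in ESCs, at 3.57 ± 0.22 RPKM in EBs and 9.87 ± 0.28 RPKM in ESCs (log2 fold change −1.47, SE 0.07, edgeR adjusted p = 3.10e-11). In KD cells the levels were 10.1 ± 0.50 RPKM in EBs and 9.86 ± 0.84 RPKM in ESCs, overlapping, with a log2 fold change of 0.04 (SE 0.07, adjusted p = 0.639). Scaling by library totals alone moved the median of all genes by 0.37 in KD cells and 0.53 in WT cells, and Lama1 in KD cells was then called higher (0.41, adjusted p = 4.35e-04).

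**Figure D4:**
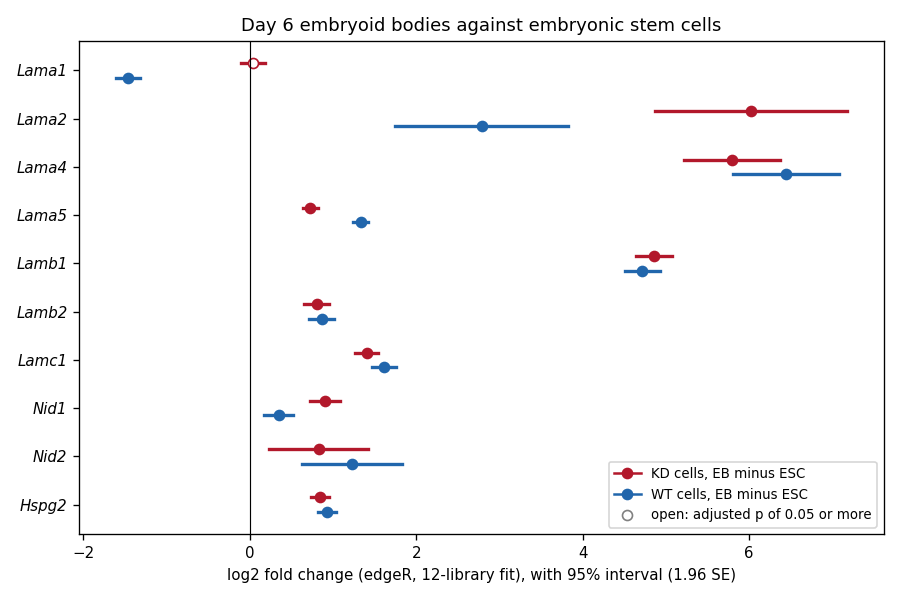
Log2 fold change of EB minus ESC for each gene in KD cells and in WT cells, from the edgeR fit of 12 libraries. Bars are approximate 95% intervals (1.96 SE). Lama1 lies at 0.04 in KD cells (open symbol, not called) and at −1.47 in WT cells, while the other 9 genes lie above 0 in both.

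Levels between genes were compared per exon length. In KD EBs the order in mean RPKM was Lamc1 (58.9), Nid2 (52.4), Lamb1 (45.3), Hspg2 (44.8), Lama5 (36.7), Nid1 (32.2), Lamb2 (19.9), Lama1 (10.1), Lama4 (3.08) and Lama2 (0.338), where Lamb1 and Hspg2 overlapped. In WT EBs it was Lama5 (56.3), Lamc1 (53.96), Hspg2 (53.9), Lamb1 (44.8), Nid2 (40.2), Lamb2 (23.6), Nid1 (15.5), Lama1 (3.57), Lama4 (2.33) and Lama2 (0.0797), where Lamc1 and Hspg2 overlapped. Lama5, the highest in WT EBs, was thus below Lamc1, Nid2, Lamb1 and Hspg2 in KD EBs. In KD ESCs Nid2 (29.5), Hspg2 (24.9), Lamc1 (22.3) and Lama5 (22.1) led, followed by Nid1 (17.2), Lamb2 (11.4) and Lama1 (9.86), with overlap between Lamc1 and Lama5 and between Lamb2 and Lama1. In WT ESCs Hspg2 (28.3) and Lama5 (22.4) led, and Lamc1 (17.6), Nid2 (17.2), Lamb2 (13.0), Nid1 (12.2) and Lama1 (9.87) each overlapped the next. Lamb1, Lama4 and Lama2 came last in both kinds of ESC.

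A trimer takes a chain of each type, and the summed RPKM of each type were set against Lamc1, the gamma chain, in every library. The alpha chains summed to 0.853 ± 0.03 times Lamc1 in KD EBs and 1.15 ± 0.02 times in WT EBs (SD, n = 3 each). The beta chains summed to 1.11 ± 0.04 times Lamc1 in KD EBs and 1.27 ± 0.01 times in WT EBs. In ESCs the beta chains were the lesser type, at 0.583 ± 0.02 times Lamc1 in KD ESCs and 0.835 ± 0.04 times in WT ESCs, with the alpha chains at 1.44 ± 0.09 and 1.85 ± 0.24 times in KD and WT ESCs. The nidogens summed to 84.6 ± 0.22 RPKM in KD EBs, against 55.7 ± 1.35 RPKM in WT EBs. In ESCs they summed to 46.7 ± 2.32 RPKM (KD, 44.4 to 49.1) and 29.3 ± 10.0 RPKM (WT, 17.8 to 35.5). ESC WT replicate 2 gave the lowest nidogen sum. That library also gave the highest alpha chain ratio of the WT ESCs, which ran from 1.70 to 2.12, against 1.37 to 1.54 in KD ESCs.

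Other basement membrane genes were read from 7 lists beside the members. Their counts in EBs are to be read against all 17355 genes tested, of which 28.0% were called higher and 27.7% lower. Of the other laminin chains, all 3 tested were lower in KD EBs than in WT EBs, with a median log2 fold change of −1.14. They are epithelial or rare chains and were sparse here: Lamb3 had 3.28 ± 0.45 CPM in KD EBs and 10.3 ± 0.78 CPM in WT EBs (edgeR adjusted p = 4.93e-10, log2 fold change −1.66, SE 0.17), and Lamc3 had 0.928 ± 0.28 and 2.04 ± 0.52 CPM in KD and WT EBs (−1.14, SE 0.34, adjusted p = 0.00546). Of 7 basement membrane collagens tested, 5 were higher and 1 was lower in KD EBs (median 0.25). Col4a1 and Col4a2, the collagen IV chains to which nidogens link laminin, were named for that role after their values were seen. Col4a1 had 803 ± 20.3 CPM in KD EBs and 553 ± 16.3 CPM in WT EBs (0.54, SE 0.03), and Col4a2 had 369 ± 7.13 and 310 ± 5.90 CPM in KD and WT EBs (0.25, SE 0.03). Col18a1, the source of endostatin, was lower, at 313 ± 8.19 CPM in KD EBs and 696 ± 18.4 CPM in WT EBs (edgeR adjusted p = 1.06e-23, log2 fold change −1.15, SE 0.03).

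Of 14 other basement membrane components tested, 6 were higher and 4 lower in KD EBs (median 0.06). Frem1, a matrix protein of the epithelial basement membrane that acts in a complex with Fras1, had 103 ± 2.88 CPM in KD EBs and 11.8 ± 2.01 CPM in WT EBs (edgeR adjusted p = 2.79e-16, log2 fold change 3.11, SE 0.09). Fbln2, which encodes fibulin 2, a laminin-binding glycoprotein, had 21.2 ± 1.11 CPM in KD EBs and 54.3 ± 2.80 CPM in WT EBs (adjusted p = 2.37e-16, log2 fold change −1.36, SE 0.07). Of 8 basement membrane proteases, 6 were higher and 2 lower (median 0.84), with the metalloproteinases Adamts1 (2.36, SE 0.08) and Mmp9 (2.07, SE 0.10) and the laminin and collagen processing enzyme Bmp1 (1.20, SE 0.05) more than 1 log2 unit higher in KD EBs.

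Laminin receptors were split. Of 11 tested, 3 were higher and 6 lower in KD EBs, with a median log2 fold change of −0.42. Itga1, an integrin subunit for collagen and laminin, had 10.2 ± 0.73 CPM in KD EBs and 3.15 ± 0.14 CPM in WT EBs (edgeR adjusted p = 2.23e-10, log2 fold change 1.70, SE 0.16). Itga2 was sparse, at 0.746 ± 0.33 and 0.164 ± 0.07 CPM in KD and WT EBs (2.16, SE 0.61, adjusted p = 0.00327). Itgb1, their shared beta subunit, and Dag1, dystroglycan, were named for their role after their values were seen. Itgb1 had 597 ± 12.9 CPM in KD EBs and 436 ± 7.53 CPM in WT EBs (0.45, SE 0.03), while Dag1 had 241 ± 3.59 CPM in KD EBs and 394 ± 7.96 CPM in WT EBs (−0.71, SE 0.03). Of 8 enzymes that glycosylate dystroglycan 6 were higher and 2 lower (median 0.24), and of 9 proteins that anchor laminin receptors inside the cell 7 were higher and 0 lower (median 0.32). The median of all genes tested in EBs was 0.0024, with 28.0% of them called higher and 27.7% lower.

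In ESCs, 1 gene of these 7 lists was called between KD and WT: the heparan sulfate proteoglycan Sdc4, at 225 ± 4.58 CPM in KD ESCs and 337 ± 43.8 CPM in WT ESCs (log2 fold change −0.58, SE 0.09, edgeR adjusted p = 0.0243). Without ESC WT replicate 2, a fit that called 9.35% of all genes (1557 of 16648), 2 of 9 receptors were called lower and 0 higher, and 1 of 11 other components was called higher and 2 lower. Of 7 proteases 1 was called higher and 2 lower, and of 8 anchoring proteins 0 higher and 1 lower. Of the 3 other laminin chains, the 4 collagens and the 8 dystroglycan enzymes tested in that edgeR fit, 0 were called and 0 had an unadjusted p under 0.05.

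**Figure D5:**
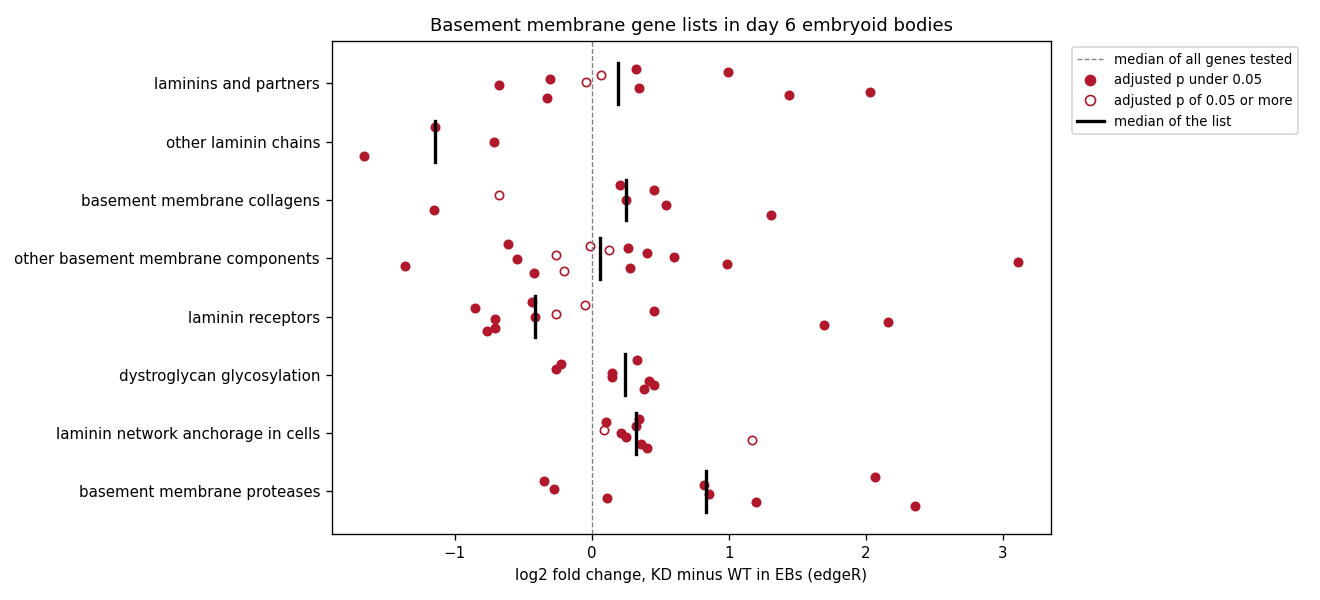
Log2 fold change of KD minus WT in EBs for the genes of each basement membrane list, with the list's median as a bar and the median of all genes tested (0.0024) as a dashed line. Filled points passed an edgeR adjusted p of 0.05. All 3 other laminin chains lie below 0, and the proteases have the highest list median, 0.84.

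Marker lists of several cell types differed between the same groups of EBs. Over all genes tested in EBs, 28.0% were called higher and 27.7% lower. Of the 12 naive pluripotency genes, 11 were higher and 0 lower in KD EBs than in WT EBs, with a median log2 fold change of 1.83 and the sums given above. Sums of marker levels are in CPM scaled over all 12 libraries. The summed level of 17 extraembryonic endoderm genes was 1225 to 1262 CPM in KD EBs and 906 to 924 CPM in WT EBs (9 higher, 5 lower), and 27.8 to 29.3 CPM in KD ESCs and 43.7 to 46.3 CPM in WT ESCs. The 13 endothelial genes summed to 264 to 277 CPM in KD EBs and 143 to 150 CPM in WT EBs, where Emcn was at 0 (11 higher, 2 lower), and to 246 to 267 CPM in KD ESCs and 294 to 323 CPM in WT ESCs, where Cdh5 and Emcn were at 0 in both. The 12 fibroblast and mesenchyme genes summed to 2019 to 2088 CPM in KD EBs and 581 to 591 CPM in WT EBs (10 higher, 1 lower), and to 42.8 to 50.5 CPM in KD ESCs and 48.6 to 51.1 CPM in WT ESCs. The 10 striated muscle genes summed to 47.4 to 50.6 CPM in KD EBs and 144 to 152 CPM in WT EBs (0 higher, 7 lower of 8 tested), and to 60.1 to 64.4 CPM in KD ESCs and 76.6 to 126 CPM in WT ESCs. The 10 neuroectoderm genes summed to 135 to 140 CPM in KD EBs and 101 to 106 CPM in WT EBs (4 higher, 2 lower of 8 tested), and to 153 to 163 CPM in KD ESCs and 156 to 164 CPM in WT ESCs. The endothelial and neuroectoderm sums of both kinds of ESC lay above those of WT EBs. The striated muscle sums of both kinds of ESC lay above those of KD EBs. For the endothelial, neuroectoderm and striated muscle lists, a sum is therefore not to be read as a number of such cells across stages. In these bulk libraries a different number of cells of a type and a different amount of RNA per cell cannot be told apart. The part of the listed cell types in the members' differences was not tested.

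The genes nearest to each member in pattern were found by the root mean square difference of centred log2 CPM over the 12 libraries, among genes with a mean log2 CPM of at least 2. Hspg2 was the nearest gene to Lamb2 (0.08 log2 units), and the integrin subunit gene Itgb5 was the nearest to Hspg2 (0.05) and also among the 3 nearest to Lamb2 (0.09). Lamc1 was nearest to the cohesin subunit gene Rad21 (0.05), Luc7l2 and Ahctf1, and Lama5 to Mpp2 (0.06), Stx16 and Gfpt2. Lama1 was nearest to Rab38 (0.16), mt-Cytb and Pde9a, Lamb1 to Irs2 (0.20), Tcaf1 and Jcad, Nid1 to Tpp1 (0.12), Brpf3 and Gjc1, and Nid2 to Ptbp1 (0.11), Taf6 and Kansl2-ps. The distances were wider for Lama2, nearest to the microfibril gene Mfap4 (0.50), Ltbp1 and Adamts9, and for Lama4, nearest to the growth factor gene Kitl (0.51), Ripor3 and Tgfb2. The 12 libraries fall into 4 groups, so the measure compares mostly group means.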

How the data were processed

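The deposited values were raw read counts per gene, in 1 table for ESCs and 1 for EBs. The submitters' processing notes name HISAT2 (2.1.0), featureCounts (2.0.3) and DESeq2 (1.18.1). The deposited counts, per the file headers, used the Ensembl release 90 annotation of GRCm38, with both ends mapped and chimeric pairs left out. No strand option was named, and none to count pairs: of counts from 1 to 10 between 61.7% and 68.7% per library were even, against 48.0% to 51.6% of counts from 101 to 1000, so mates were counted separately, which overstates the number of fragments. Of 52636 identifiers, 52403 matched a symbol and 233 did not.

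KD and WT were compared within each stage, from 6 libraries, with edgeR 4.0.16 in R 4.3.3 (quasi-likelihood F-test, TMM, filterByExpr with its minimum count at 10 and minimum total at 15, robust estimates, no covariate). EBs against ESCs and the difference between stages came from 1 fit of 12 libraries. P-values were adjusted by Benjamini-Hochberg over all genes tested. The SE was taken as the size of the log2 fold change over the root of its F. Shares were compared with a two-sided exact permutation test over the 20 splits of 3 against 3, whose smallest p is 0.1. The scripts were tested on simulated counts. Alternatives were DESeq2 1.42.0, library totals in place of TMM, no filter, the replicate number as a block, the other set of libraries in the fit, and each library left out in turn. The series calls the replicates biological. No pair held identical values. Same-numbered libraries did not deviate together (correlations −0.03 to 0.04), so the numbers were not taken as pairs.

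All 10 members are named. Of the pathway lists, genes called with an absolute log2 fold change of at least 1 could be named, and other names are marked as chosen after their values were seen. For each member the 3 nearest genes in pattern are named, among 10507 candidates (10508 for Lama2 and Lama4). The members and lists were chosen with earlier results of these data known. Protein sequences were not used here.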

Additional observations from a re-analysis of the deposited data

Results flagged for a closer look

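The KD effect differed between EBs and ESCs by the interaction test in 4 of the 10 members, against 23.0% of all 18975 genes tested. Each difference given here came from the fit of 12 libraries. The KD effects in brackets came from the fits of 6 libraries per stage, so they do not subtract to it exactly. The difference of the log2 fold changes, EBs minus ESCs, was 1.50 for Lama1 (KD minus WT 1.44 in EBs and 0.0074 in ESCs), and it stayed between 1.34 and 1.54 in the 16 alternatives. It was −0.60 for Lama5 (−0.68 in EBs, −0.0073 in ESCs), between −0.77 and −0.57 in the alternatives. It was 0.56 for Nid1 (1.00 in EBs, 0.51 in ESCs), called in 15 of 16 alternatives. It was 3.24 for Lama2, called in all 16 alternatives (adjusted p 0.00120 to 0.0463), although the ESC libraries held at most 7 counts of this gene.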

How the results depend on the processing

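Of the single-gene values recomputed under the alternatives, 681 kept their side of the threshold and, where called, their direction. A further 18 passed only under the alternative, 10 were lost and 0 of those called reversed. The 681 include values called in neither fit whose sign changed. Lama1 for EB minus ESC in KD cells was 0.04, and −0.02 without ESC WT replicate 2. The ESC comparison depended most on the processing, and the cause was not tested. Against 97 genes called in ESCs, 36 were called with library totals alone and 266 with the replicate number as a block. DESeq2 called 909 and edgeR with no filter 1769. The fit of 12 libraries called 1999 of 18975 genes tested, and 8 to 1557 were called with 1 library left out. Shares of the genes tested are not given for most of these fits, so the counts of members that follow describe the calls only. Members called higher in ESCs, 0 in the reported fit, numbered 2 with DESeq2, 2 with no filter, 1 with the replicate block (Nid1, adjusted p = 0.0416), 2 in the fit of 12 libraries and 0 to 3 with 1 library left out. Members called lower in ESCs numbered 1 in the fit of 12 libraries and 0 to 2 with 1 library left out. In EBs, 5 members were called higher and 3 in the fit of 12 libraries, with 5 to 6 when 1 library was left out. The members with a lower KD effect in EBs than in ESCs numbered 1 to 2 with 1 library left out. The replicate block also gave a call to Lamc1 in EBs (adjusted p = 0.0304) and changed no other call of a member. With own numbers, samples correlated best in all 3 pairs only between WT EBs and WT ESCs, which is a hint from the data and not the design. Library totals alone shifted the median of all genes by 0.11 in ESCs, 0.014 in EBs and −0.16 in the stage difference, and called Lamc1 in EBs (adjusted p = 0.0212). Without division by length the difference in share between KD and WT EBs was 12.5 points for Lama1 and 11.1 for Nid1. In ESCs, the Lama1 share differed by 0.16 points, and by −0.81 to 1.03 with 1 library left out (−0.15 without WT replicate 1, −0.81 without KD replicate 3). The Lamb2 share differed by −0.40 points, and by −1.50 to 1.01 (0.37 without WT replicate 3, 1.01 without KD replicate 3). The Nid1 share differed by −7.03 points in ESCs and by −1.11 without ESC WT replicate 2, which itself stood at 55.6%. Depth limits Lama2 and Lama4 in ESCs, and the 3 libraries per group limit every exact test to a p of 0.1 or more.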
